A study of Mus musculus with 14 samples.

Results

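The proteasome and the genes that load its products onto MHC class I molecules were followed as a set of 45 listed genes: 14 subunits of the constitutive core, 13 of the 19S regulator, the 3 catalytic subunits of the immunoproteasome, 4 core activators, 7 genes of peptide loading, and 4 genes for class I molecules and their transactivator. Each gene was represented by the probe set with the highest mean log2 value over the 14 arrays among those that the array's annotation gives to a single gene. Of the 45 genes, 43 had such a probe set, out of 18193 genes in all, and Psme2 and H2-T23, found only on probe sets shared by several genes, were not analysed. All 43 exceeded the median of the whole table, 7.52 log2, on all 14 arrays, so none entered through a group in which it was high, and their means over the arrays ran from 9.19 log2 for Psme3 to 14.9 for B2m. Values are log2 intensities, and levels of different probe sets were not set against each other.

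Dendritic cells were grown from the marrow of BALB/c mice for 8 days in recombinant granulocyte-macrophage colony-stimulating factor, and 7 groups of 2 arrays each were measured. Without stimulus, cells received the solvent DMSO (0.01%), the cathepsin L inhibitor CLIK148 (5 µM) or the cathepsin B inhibitor CA074Me (5 µM) for 1 h. The other 4 groups had the same 1 h of pre-treatment and then a stimulus: CpG oligonucleotide (25 µg/mL, labelled pro-Th1) after DMSO or CLIK148, or TNF-alpha (500 U/mL, labelled pro-Th2) after DMSO or CA074Me. CpG is read by Toll-like receptor 9 and TNF by its own receptors. The age and number of the mice, whether marrow was pooled, and the time from stimulus to harvest are not given in the labels or design text. All 7 groups were made in each of 2 independent experiments, called here experiment 1 and experiment 2 after the replicate numbers, so an array can be set against the array of another group in the same experiment.

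The 26S proteasome degrades ubiquitinated proteins: a barrel-shaped core holds the proteolytic sites, and the 19S regulator binds, unfolds and feeds in the substrate. In cells of the immune system, and under interferon gamma, the catalytic subunits Psmb5, Psmb6 and Psmb7 can be replaced by Psmb8, Psmb9 and Psmb10, which gives the immunoproteasome. Its peptides enter the endoplasmic reticulum through the Tap1-Tap2 transporter, are trimmed, and are loaded onto class I heavy chains paired with B2m with the help of tapasin (Tapbp), calreticulin (Calr) and Pdia3. The transactivator Nlrc5 drives transcription of class I genes, and dendritic cells use the whole route to show antigen to CD8 T cells.

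Cell type markers were read before the members. All 10 dendritic cell markers were measured, with a summed log2 level of 115.6 to 119.2 over the 14 arrays. Granulocyte markers were bright as well (7 of 8 with a probe set, summed 86.7 to 88.8), as were macrophage markers (7 of 8), whose sum was 84.3 to 85.6 on unstimulated and 81.8 to 84.0 on stimulated arrays. The 7 measured of 8 lymphocyte and plasmacytoid markers averaged 7.41 to 7.61 log2, with Cd3g and Ncr1 never above the table's median, and all 6 measured erythroid and stromal markers stayed at or below it. With CpG after solvent, 6 of 10 dendritic cell markers were above 0, with a median of 0.01 log2. In limma the lectin Clec10a fell by 1.60 (adjusted p 0.0326), and with the experiment as a block the chemokine receptor Ccr7 also rose, by 1.17 (adjusted p 0.022; 0.183 without). Of the 7 macrophage markers 4 were below 0, and Csf1r and C1qa fell with the block, by 0.40 and 1.51 (0.0232 and 0.033). The part of these shifts in the results on the members was not tested. In bulk RNA of this kind, more RNA per cell and more cells of a type cannot be told apart.

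To show where members lie and what precedes their starts, 4 stretches upstream of RefSeq start sites were taken from windows of 250 bases before to 50 after each start (GRCm38.p6). Of the 45 listed genes, 37 had a window, and Nlrc5, Tap2 and Tapbpl were not among them. In the annotation's order, Psmb9, Tap1, Psmb8 and Tap2 follow each other on chromosome 17 with no gene between them, and Psmb9 and Tap1 start back to back on opposite strands. The 225 bases between those starts (chr17:34187331-34187555, plus strand, from Psmb9 to Tap1) are shown because one immunoproteasome subunit and one transporter subunit share them. For B2m (chr2:122147437-122147686, plus strand), capitals mark matches to the interferon-stimulated response element and to the NF-kB motif, both of 10 letters. For Psmb8 (chr17:34197945-34198194, plus strand), capitals mark the gamma-activated sequence TTCNNNGAA, and for its constitutive counterpart Psmb5 (chr14:54617996-54618245, minus strand) the pattern TGACNNNGC.
Psmb9-Tap1: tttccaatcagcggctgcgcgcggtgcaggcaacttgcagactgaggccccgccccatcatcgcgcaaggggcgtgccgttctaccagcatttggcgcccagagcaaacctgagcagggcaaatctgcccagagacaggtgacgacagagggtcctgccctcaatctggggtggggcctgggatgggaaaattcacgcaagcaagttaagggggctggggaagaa
B2m: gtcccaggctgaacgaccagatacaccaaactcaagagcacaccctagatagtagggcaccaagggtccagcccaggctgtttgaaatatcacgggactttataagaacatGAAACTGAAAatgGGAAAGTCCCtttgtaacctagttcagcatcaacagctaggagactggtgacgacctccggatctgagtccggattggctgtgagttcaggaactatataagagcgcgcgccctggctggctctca
Psmb8: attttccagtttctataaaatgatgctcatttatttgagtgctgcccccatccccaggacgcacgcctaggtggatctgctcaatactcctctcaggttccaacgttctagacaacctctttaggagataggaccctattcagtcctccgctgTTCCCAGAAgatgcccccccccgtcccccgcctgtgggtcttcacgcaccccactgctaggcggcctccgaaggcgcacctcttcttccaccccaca
Psmb5: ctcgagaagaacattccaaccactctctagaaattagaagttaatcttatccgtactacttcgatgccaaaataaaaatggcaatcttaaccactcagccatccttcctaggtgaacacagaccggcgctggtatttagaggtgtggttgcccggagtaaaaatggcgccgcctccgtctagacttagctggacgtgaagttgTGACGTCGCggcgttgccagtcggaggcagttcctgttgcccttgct
All motifs were searched on both strands of the whole window, and TTCNNNGAA reads the same on both; the matches shown do not overlap one another. The response element was found in 6 of the 37 listed genes with a window, against 3.99% of all 27025 genes with one. The NF-kB motif was found in 8 of the 37 (9.55% of the genes counted), TTCNNNGAA in 3 (9.55%) and TGACNNNGC in 7 (14.0%). Of the 3 immunoproteasome genes, only Psmb8 held a match to any of the 4 patterns, and the Psmb9-Tap1 stretch held none. These matches describe the letters in the windows.

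The first comparison set CpG after the solvent against the solvent alone. With the experiment as a block in limma, which takes each difference within an experiment, 11 of the 43 members rose and 0 fell: Nlrc5, Tap1, Tapbpl, Psma6, Tap2, Psmd11, Psma3, Psmb6, Psmd1, Psmc5 and Psmc1. In the background, 6.19% of the 12172 tested genes were called higher in that fit, 13.7% lower, and 19.9% in either direction (753 genes higher and 1667 lower, or 1050 and 1232 after cyclic loess). P-values here rest on the spread between the 2 experiments pooled over all 7 groups, with their mean gap taken out where the block was used. They do not measure how far the CpG change varies from experiment to experiment. Of the genes called, Nlrc5, Tap1, Tapbpl, Psma6, Tap2, Psma3 and Psmb6 had CpG responses that differed between the experiments, by a test described below. Without the block, limma called 0 of the 43, beside 1.92% of all genes, and the lowest adjusted p values were 0.0598 for Psmd11 and 0.062 for Tap1. At an unadjusted p under 0.05 that fit had 15 members, beside 2224 of all 12172 genes. When the CpG array of experiment 2 was left out of the fit without the block, 9 members were called, with the lone CpG array assumed to vary like the other groups. With the block and another scaling, both chosen after seeing the data, Psma3 and Psmb6 lost their calls after reference-gene scaling (adjusted p 0.0664 and 0.066) and after cyclic loess (0.068 and 0.0621), Tapbpl after the first (0.054) and Psma6 after the second (0.0523). The CpG and solvent arrays did not overlap for 29 members, all higher with CpG, against 16.6% of all genes higher and 26.5% lower by the same rule. Over the 43, the median change was 0.22 log2, with 39 above 0, while over all genes it was -0.05 with 39.4% above 0.

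Nlrc5, the class I transactivator, changed most. It read 9.33 and 8.99 log2 in the solvent arrays of experiments 1 and 2 and 11.55 and 9.89 with CpG, a mean rise of 1.56 log2 (2.95-fold; SE 0.41 and adjusted p 0.031 with the block, SE 0.61 and adjusted p 0.223 without). Both CpG arrays were above both solvent arrays, but the experiments gave rises of 2.23 and 0.90. Of the 12172 tested genes, 65 had a larger mean rise. B2m, the light chain of every class I molecule, was high throughout: 14.88 and 14.82 with solvent and 15.18 and 14.87 with CpG, a difference of 0.18 that did not pass (0.437 adjusted, 0.119 with the block). H2-M3, which presents formylated peptides, read 11.73 and 11.59 and 12.09 and 11.68, with the experiment 2 value under CpG below the solvent value of experiment 1.

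Among the peptide loading genes, 3 of 7 rose in the fit with the block. Tap1, an arm of the peptide transporter, went from 11.24 and 11.33 to 12.11 and 11.91 (0.72 log2, 1.65-fold, SE 0.16, adjusted p 0.0174 with the block). Tap2, the other arm, went from 11.32 and 11.35 to 11.84 and 11.70 (0.44, SE 0.12, adjusted p 0.0378 with the block and 0.127 without). For both arms the groups did not overlap, and both experiments showed the rise. Tapbpl (TAPBPR), a peptide editor related to tapasin, went from 10.14 and 10.21 to 11.01 and 10.50 (0.58, SE 0.17, adjusted p 0.0401 with the block and 0.165 without). Tapasin itself, Tapbp, read 12.89 and 12.80 and then 13.78 and 12.93, and its 0.51 log2 did not pass (adjusted p 0.116 with the block), nor did the chaperone Calr at 0.26. The trimming peptidase Erap1 and the oxidoreductase Pdia3 differed by 0.00 and -0.03. The median of the 7 was 0.44 log2, 0.53 in experiment 1 and 0.26 in experiment 2, and 0.22 without the CpG array of experiment 1; without that array the immunoproteasome median of 0.55 was 0.25 and that of the constitutive proteasome, 0.19, was 0.13.

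**Figure D1:**
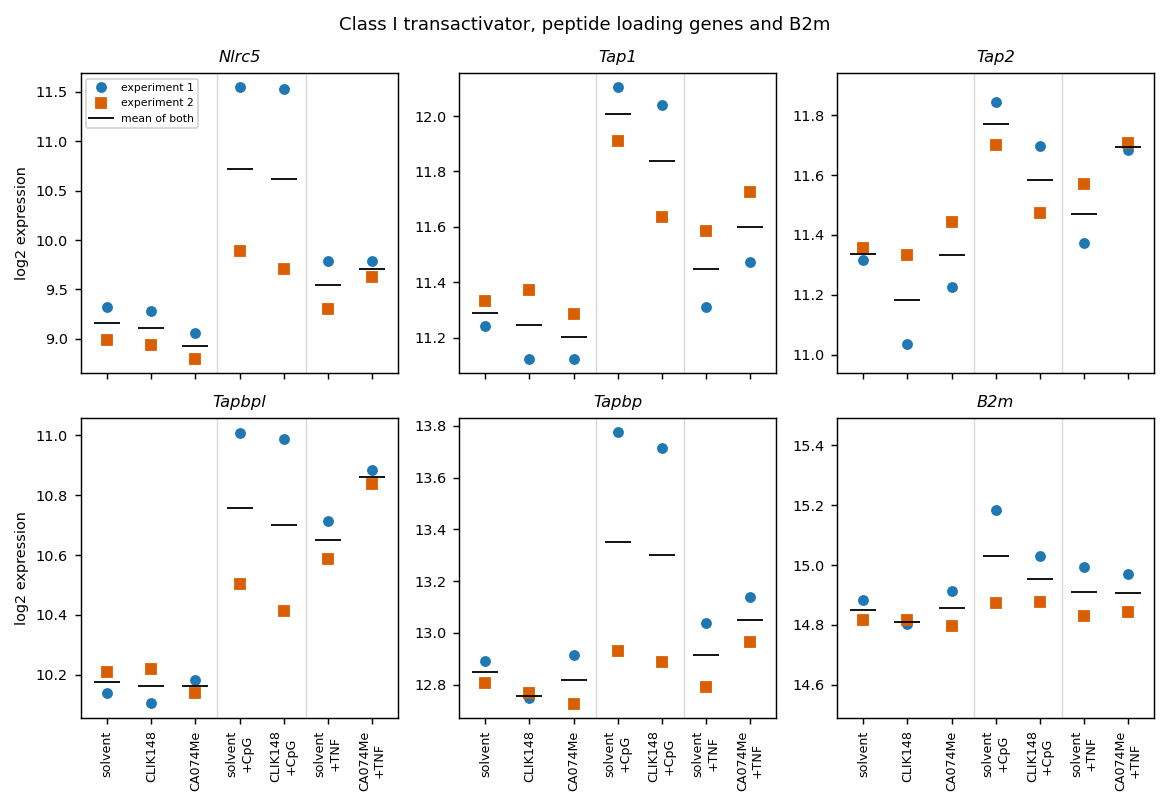
Log2 expression (vertical axes, each with its own scale) of Nlrc5, Tap1, Tap2, Tapbpl, Tapbp and B2m on every array, by group; blue circles are experiment 1, orange squares experiment 2, and dashes the mean of both. In the CpG groups the experiment 1 array lies above the experiment 2 array for all 6 genes, at 11.55 against 9.89 for Nlrc5 after solvent.

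The 3 immunoproteasome subunits did not pass in either fit, and they differed between the experiments. Psmb8 (LMP7), the chymotrypsin-like immunosubunit, read 13.41 and 13.63 with solvent and 13.98 and 13.77 with CpG (0.35 log2, SE 0.16, adjusted p 0.297; 0.0821 with the block). Psmb9 (LMP2), the subunit in the place of Psmb6, read 12.68 and 12.96 and then 13.55 and 13.18 (0.55, SE 0.25, adjusted p 0.287; 0.0931 with the block). For both, CpG and solvent arrays did not overlap. Psmb10 (MECL-1), the trypsin-like immunosubunit, read 12.35 and then 13.63 in experiment 1, and 12.12 and 12.04 in experiment 2. Its mean difference of 0.60 log2 (SE 0.52, adjusted p 0.569; 0.254 with the block) thus came from experiment 1, and it was -0.19 without the CpG array of that experiment.

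Their constitutive counterparts differed less from solvent in experiment 1. Psmb5 read 12.19 and 12.34 with solvent and 12.39 and 12.45 with CpG (0.16, adjusted p 0.398; 0.096 with the block). Psmb6 read 12.70 and 12.68 and then 13.16 and 12.87 (0.32, SE 0.09, adjusted p 0.0429 with the block and 0.165 without), and Psmb7 10.21 and 9.97 and then 10.53 and 10.32 (0.33, 0.53 and 0.154). So Psmb6 is the catalytic subunit that passed, in the fit with the block. Pair by pair, the change of the immunosubunit exceeded that of its counterpart in experiment 1 by 0.37 log2 for Psmb8 over Psmb5, 0.41 for Psmb9 over Psmb6 and 0.96 for Psmb10 over Psmb7. In experiment 2 the same differences were 0.02, 0.03 and -0.42, so no pair showed an excess above 0.1 log2 there.

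**Figure D2:**
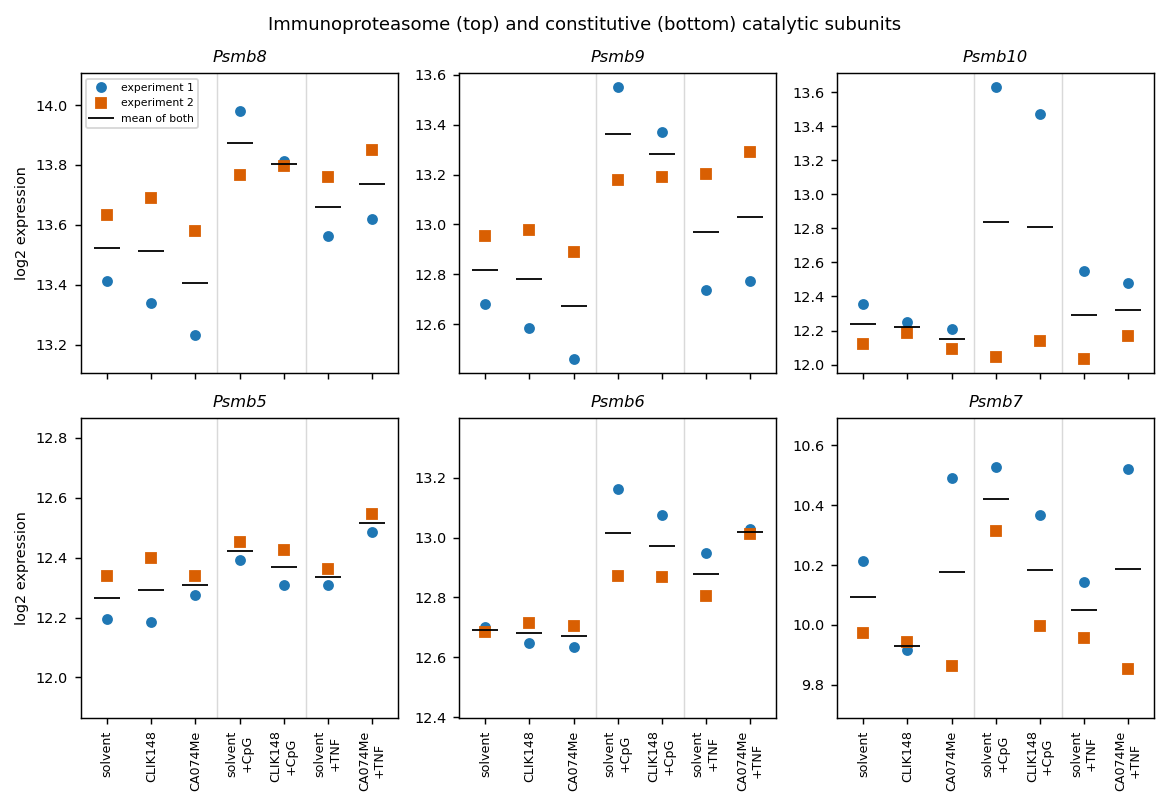
Log2 expression (vertical axes, each with its own scale of at least 1 log2) of the 3 immunoproteasome subunits (top) and the constitutive subunits they replace (bottom) on every array, by group; circles are experiment 1, squares experiment 2, dashes the mean of both. Psmb10 stood at 13.63 with CpG after solvent in experiment 1 and at 12.04 in experiment 2, and Psmb5 at 12.39 and 12.45.

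Of the 14 constitutive core subunits, Psma6, Psma3 and Psmb6 rose with the block. Psma6, an alpha-ring subunit, went from 13.41 and 13.43 to 14.16 and 13.66 (0.49, SE 0.14, adjusted p 0.0378 with the block and 0.161 without). Psma3, another alpha subunit, went from 13.02 and 13.09 to 13.54 and 13.24 (0.33, SE 0.10, 0.0452 and 0.146). Both had higher values on each CpG array than on each solvent array. The other core subunits differed by -0.04 (Psmb1) to 0.33 (Psmb7), and the median of the 14 was 0.19, at 0.28 in experiment 1 and 0.06 in experiment 2.

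Of the 13 subunits of the 19S regulator, Psmd11, Psmd1, Psmc5 and Psmc1 rose with the block. Psmd11, a lid subunit, went from 12.23 and 12.41 to 12.74 and 12.64 (0.37, SE 0.08, adjusted p 0.0137). Psmd1, the larger of the base scaffolds, went from 11.94 and 12.03 to 12.20 and 12.29 (0.26, SE 0.06, adjusted p 0.0247 with the block and 0.121 without). The ATPases of the base ring that unfold substrate followed: Psmc5 from 11.41 and 11.39 to 11.66 and 11.62 (0.24, 0.0198 with the block and 0.0788 without) and Psmc1 from 11.18 and 11.27 to 11.32 and 11.53 (0.20, 0.0425 and 0.33). These are small changes of 1.15- to 1.29-fold, and those of Psmd1 and Psmc5 were of like size in both experiments, at 0.26 and 0.27 and at 0.26 and 0.23. The median of the 13 was 0.18 in each experiment, with 10 of 13 not overlapping their solvent arrays.

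The core activators cap the barrel without ATP. Psme1, a subunit of the interferon-inducible PA28 cap, read 12.89 and 12.90 with solvent and 13.76 and 13.15 with CpG, and its 0.56 log2 did not pass (0.175 adjusted; 0.0509 with the block). Psme3, the nuclear PA28 subunit, read 9.07 and 9.22 and then 9.41 and 9.35 (0.23, 0.221 and 0.0592), and Psme4, the PA200 activator, differed by 0.10. In both named genes each CpG array was above each solvent array, and the differences in experiment 1 were 0.87 and 0.34 against 0.25 and 0.13 in experiment 2.

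CpG after CLIK148 was measured against CLIK148 alone, on other arrays of the same experiments. Each limma fit took in the arrays of both CpG comparisons, so they shared its estimate of spread and, where used, the block. The differences between experiments in the CpG groups after solvent and after CLIK148 correlated with r of 0.935. Nlrc5, Tap1, Psmd11 and Psmd1 rose with the block, 4 of 43 against 4.03% of all genes called higher (13% lower, 17.1% in either direction; 491 genes higher and 1586 lower, or 752 and 958 after cyclic loess). Without the block 0 of 43 were called (0.813% of all genes), with 10 members at an unadjusted p under 0.05, beside 2023 of 12172 genes. The arrays did not overlap for 28 members, all higher, beside 16.1% of all genes higher and 32.5% lower. Nlrc5 read 9.28 and 8.94 after CLIK148 and 11.53 and 9.71 with CpG added (1.51 log2, SE 0.41, adjusted p 0.0374 with the block and 0.266 without). Tap1 read 11.12 and 11.37 and then 12.04 and 11.63 (0.59, 0.0369 and 0.131), Psmd11 12.29 and 12.37 and then 12.66 and 12.61 (0.30, 0.0301 and 0.126), and Psmd1 11.83 and 12.01 and then 12.17 and 12.21 (0.27, 0.0249 and 0.131). Each of these 4 genes was also called with CpG after the solvent, but the calls of these comparisons are not independent of each other. With reference-gene scaling and the block, Tap1 and Psmd11 lost their calls here (0.0538 and 0.0569).

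The catalytic subunits did not pass with CpG after CLIK148. Psmb8 read 13.34 and 13.69 and then 13.81 and 13.80, and Psmb9 12.59 and 12.98 and then 13.37 and 13.19. Psmb10 again separated by experiment, with 12.25 and then 13.47 in experiment 1 but 12.19 and then 12.14 in experiment 2. The constitutive counterparts read 12.19 and 12.40 and then 12.31 and 12.43 (Psmb5), 12.65 and 12.72 and then 13.08 and 12.87 (Psmb6), and 9.92 and 9.94 and then 10.37 and 9.997 (Psmb7). Class medians were 0.16 for the 27 constitutive core and 19S subunits, 0.50 for the immunoproteasome and 0.40 for peptide loading, beside -0.06 for all genes. Without the CLIK148 array of experiment 1 they were 0.09, 0.30 and 0.25, and without the CpG array of experiment 1 the immunoproteasome gave 0.28 and peptide loading 0.13. The fits with an array left out had no block, so they did not pair the arrays by experiment. Over the 4 pairs of arrays with and without CpG, 29 of 43 members were higher in all 4 (16.9% of all genes) and 2, Psmc3 and Pdia3, were lower in all 4 (36.3%).

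**Figure D3:**
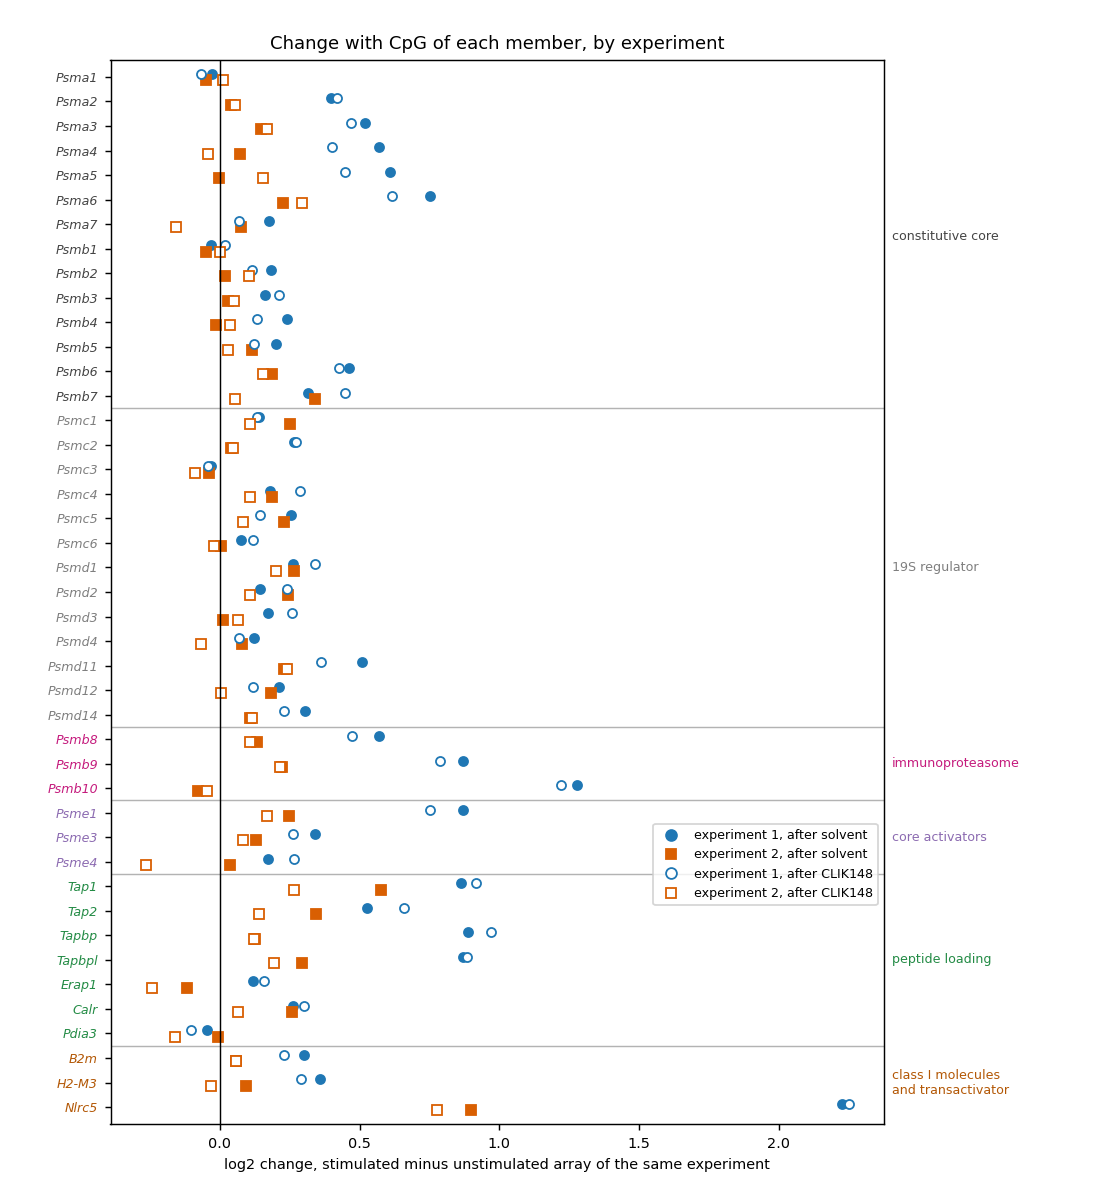
Log2 change with CpG (horizontal axis) of each of the 43 members, stimulated minus unstimulated array of the same experiment; filled symbols are after solvent, open symbols after CLIK148, circles experiment 1 and squares experiment 2, with genes grouped by role. The circles of Nlrc5 (2.23 and 2.25) and Psmb10 (1.28 and 1.22) lie far from their squares, while the 4 symbols of most 19S subunits lie close together.

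The size of the CpG response differed between the 2 experiments for part of the members, and this was tested after the values had been seen. The fit set the gap between experiments in the 2 CpG groups (after solvent and after CLIK148) against the gap in the 3 unstimulated groups. Over all genes the test called 32.6% in either direction and 11.5% with a lower response in experiment 2. Of the 43 members, 17 had a lower response in experiment 2 and 0 a higher one. By role these were 3 of 3 immunoproteasome subunits, 4 of 7 peptide loading genes (Tap1, Tap2, Tapbp, Tapbpl), 2 of 3 core activators (Psme1, Psme4), 2 of 3 of the class I and transactivator genes (Nlrc5, H2-M3), 6 of 14 core subunits (Psma2 to Psma6 and Psmb6) and 0 of 13 of the 19S regulator. The test compares 2 single experiments and no others. Its standard errors and p-values rest on how far groups with the same stimulus, or with none, differed in their gap between experiments. They do not measure how far the CpG response varies from experiment to experiment.

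The largest differences, experiment 2 minus experiment 1, were -1.43 log2 for Nlrc5 (SE 0.10, adjusted p 1.88e-06) and -1.32 for Psmb10 (SE 0.10, adjusted p 2.96e-06). Tapbp followed at -0.75 (adjusted p 5.18e-05), Psmb9 at -0.64 (0.000215), Psme1 at -0.60 (0.000295) and Tapbpl at -0.59 (0.000264). The core subunit with the largest difference was Psma4 at -0.46 (0.000977), and that of the 19S regulator was Psmc2 at -0.21 (0.0539), which did not pass. Medians of the difference were -0.64 for the immunoproteasome, -0.37 for peptide loading, -0.13 for the core and -0.06 for the 19S regulator, beside 0.06 for all tested genes. In the unstimulated solvent arrays the median gap between experiments over the 43 was 0.08, against 0.02 over all genes. Sums of the dendritic cell markers in the CpG arrays were 116.3 and 119.2 after solvent and 115.6 and 117.7 after CLIK148, so they were higher in experiment 2. Macrophage marker sums in the CpG arrays were lower in experiment 2, at 83.98 and 82.76 after solvent and 83.65 and 82.18 after CLIK148. Those sums were lower in experiment 2 without stimulus too, at 85.55 and 84.75 with solvent, 85.19 and 84.74 with CLIK148 and 85.03 and 84.28 with CA074Me. The part of either in the result was not tested.

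**Figure D4:**
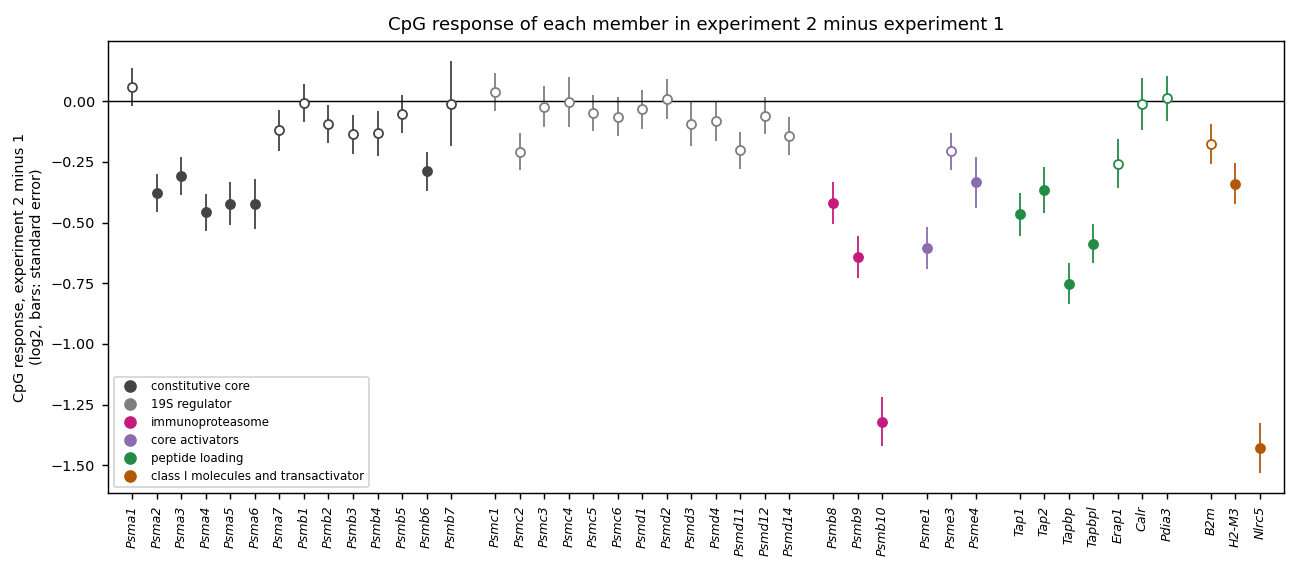
Difference between the CpG responses of experiment 2 and experiment 1 (vertical axis, log2, with the standard error as bars) for each member, coloured by role; filled points have an adjusted p under 0.05. All 17 filled points lie below 0, from -0.29 for Psmb6 to -1.43 for Nlrc5, and no 19S subunit is among them.

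With TNF after the solvent, 0 of 43 members passed. limma called 0 members without the block (0.115% of all genes) and 0 with it (3.11% of all genes, 139 higher and 240 lower, or 204 and 203 after cyclic loess). At an unadjusted p under 0.05 were 2 members without the block, beside 879 of 12172 genes, and 4 with it, beside 2499. The lowest adjusted p with the block was that of Pdia3, 0.113, which read 13.002 and 13.11 with solvent and 12.68 and 12.96 with TNF. Tapbpl had the largest difference, from 10.14 and 10.21 to 10.71 and 10.59 (0.48 log2, 95% interval 0.04 to 0.92, adjusted p 0.64; 0.152 with the block). Nlrc5 read 9.79 and 9.30 with TNF, above the solvent array of its own experiment by 0.46 and 0.31, yet the experiment 2 value lay below the solvent value of experiment 1.

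None of the 6 catalytic subunits passed with TNF. Psmb8 read 13.56 and 13.76 and Psmb9 12.74 and 13.20, against 13.41 and 13.63 and 12.68 and 12.96 with solvent. Psmb10 read 12.55 and 12.03, a difference of 0.20 in experiment 1 and -0.09 in experiment 2. Psmb5, Psmb6 and Psmb7 read 12.31 and 12.36, 12.95 and 12.80 and 10.14 and 9.96, and all 6 genes except Psmb6 overlapped their solvent arrays. Class medians were 0.04 for the constitutive proteasome, 0.14 for the immunoproteasome and 0.07 for peptide loading, beside -0.05 for all genes; leaving out 1 array at a time gave -0.0045 to 0.08 for the constitutive proteasome (without the solvent array of experiment 1 and of experiment 2), 0.03 to 0.25 for the immunoproteasome and -0.06 to 0.11 for peptide loading, the negative value without the TNF array of experiment 1. Groups did not overlap for 12 members higher and 5 lower, beside 14.3% and 26.2% of all genes.

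TNF after CA074Me was set against CA074Me alone, with other arrays of the same 2 experiments. Without the block 0 members were called, and 6 members and 1476 of 12172 genes had an unadjusted p under 0.05. With the block 2 members were called. These were Tapbpl, from 10.18 and 10.14 to 10.88 and 10.84 (0.70 log2, SE 0.17, adjusted p 0.0307 with the block and 0.153 without), and Psmb6, from 12.64 and 12.71 to 13.03 and 13.01 (0.35, SE 0.09, 0.0477 and 0.207). In the background 4.97% of genes were called higher with the block, 6.16% lower and 11.1% in either direction, so 2 of 43 is near the background; without the block it was 1.31%. Both calls were lost with reference-gene scaling and the block (adjusted p 0.0544 for Tapbpl and 0.12 for Psmb6), and that of Psmb6 also with cyclic loess and the block (0.0674). For both genes the rises of the 2 experiments were close, 0.70 and 0.70 for Tapbpl and 0.39 and 0.31 for Psmb6. Groups did not overlap for 23 members higher and 4 lower (Psmc3, Psme4, Erap1 and Pdia3), against 19.3% and 25.8% of all genes.

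Other members after CA074Me and TNF are given as values. Nlrc5 read 9.06 and 8.80 and then 9.79 and 9.62 (0.78, adjusted p 0.266 with the block). Tap1 read 11.12 and 11.28 and then 11.47 and 11.72, and Tap2 11.23 and 11.44 and then 11.68 and 11.71, neither past the threshold (0.151 and 0.0932 with the block). Tap1 and Tap2 did not overlap their CA074Me arrays, and Nlrc5 did not either. The immunosubunits read 13.23 and 13.58 and then 13.62 and 13.85 for Psmb8, 12.46 and 12.89 and then 12.77 and 13.29 for Psmb9, and 12.21 and 12.09 and then 12.48 and 12.17 for Psmb10. Psmb5 read 12.28 and 12.34 and then 12.49 and 12.55, with the groups apart, and Psmb7 10.49 and 9.86 and then 10.52 and 9.85, with its experiments further apart than its groups. Class medians were 0.10, 0.33 and 0.23 for the constitutive proteasome, immunoproteasome and peptide loading, and -0.02 for all genes; leaving out 1 array moved the immunoproteasome median between 0.16 and 0.50.

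**Figure D5:**
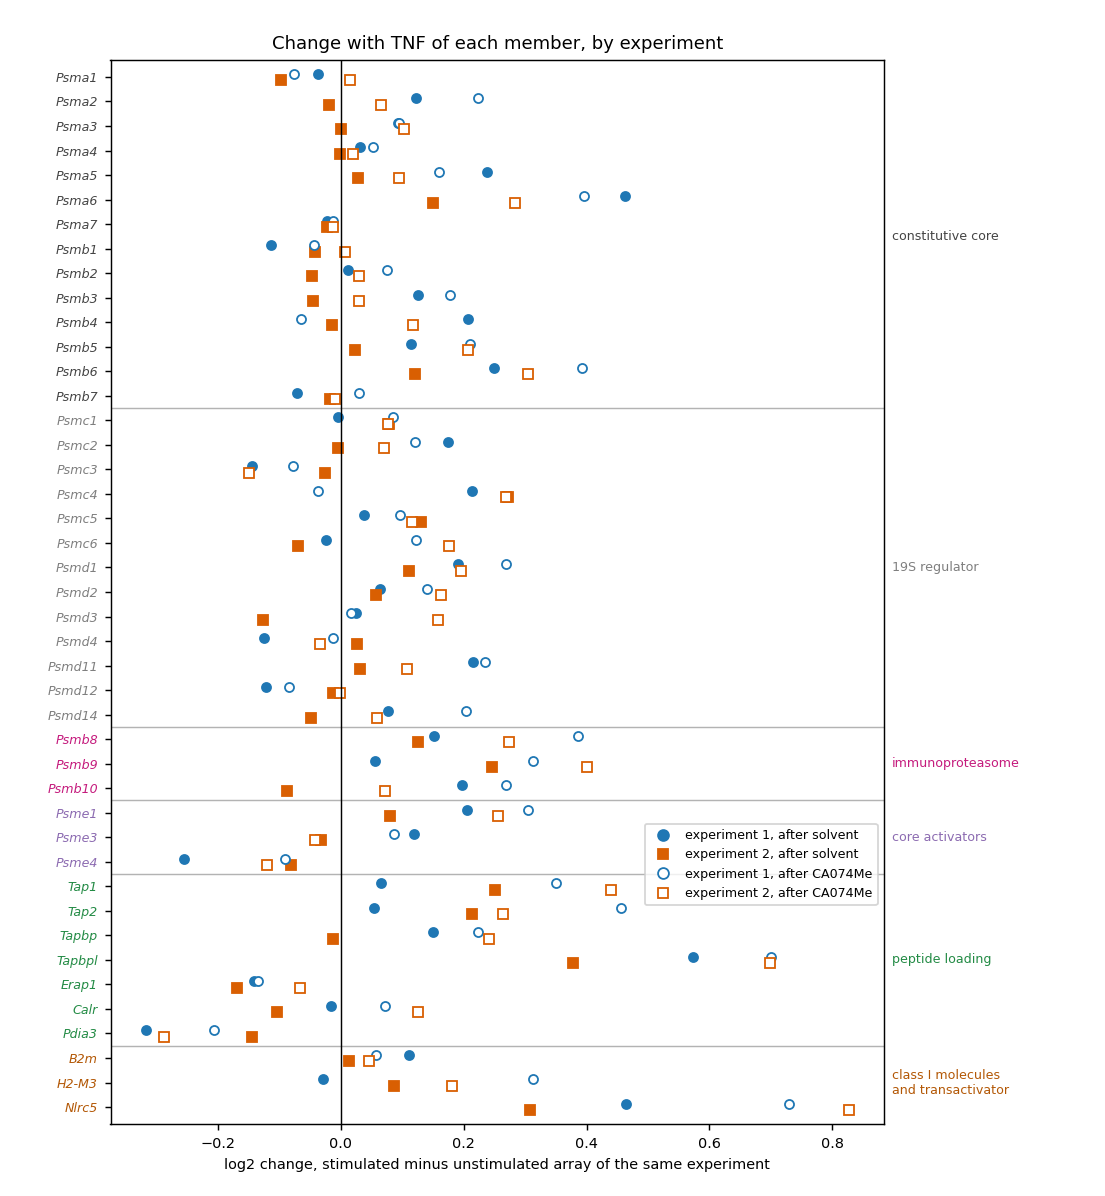
Log2 change with TNF (horizontal axis) of each member, stimulated minus unstimulated array of the same experiment; filled symbols are after solvent, open symbols after CA074Me, circles experiment 1 and squares experiment 2. Tapbpl has 4 values from 0.38 to 0.70 and Nlrc5 4 values from 0.31 to 0.83.

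A test of the TNF response between experiments, done like that for CpG, called 0 of 43 members beside 2.5% of all genes. At an unadjusted p under 0.05 it had 3 members, beside 1767 of 12172 genes. Its lowest adjusted p among the members was 0.216, for Psmb10 at -0.28 log2. The Nlrc5 response to TNF differed by -0.01 between the experiments.

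CpG against TNF, both after solvent, tested the stimuli directly. limma called 0 of 43 members without the block (0.00822% of all genes) and 0 with it (0.435%). At an unadjusted p under 0.05 were 8 members without the block, beside 773 of 12172 genes, and 15 with it, beside 1914. Arrays did not overlap for 24 members, all higher with CpG, against 13.3% of all genes higher and 12.5% lower. Nlrc5 had the largest difference, 1.18 log2 (95% interval -0.21 to 2.56; adjusted p 0.85, and 0.234 with the block), and Tap1 the next, 0.56 (0.19 to 0.93; 0.568 and 0.17). Both intervals, which are not adjusted for the number of genes, allow a wide range of sizes. On the mean of both experiments 42 of 43 members were higher with CpG, beside 42.6% of all genes, with a median of 0.17 beside -0.03.

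The inhibitors without stimulus gave no call among the members in either fit. CLIK148 against solvent left all 43 within -0.16 (Psmb7) to 0.09 (Psmb4), with 0 members at an unadjusted p under 0.05 and 12 genes of 12172 at that level. For Nlrc5, Tap1 and Psmb8 the CLIK148 arrays read 9.28 and 8.94, 11.12 and 11.37 and 13.34 and 13.69, each overlapping the solvent arrays. CA074Me against solvent ranged from -0.23 (Nlrc5) to 0.16 (Psmd1), also with 0 members at an unadjusted p under 0.05 without the block and 1 with it. All 3 immunoproteasome subunits were below their solvent array with CA074Me in both experiments, with mean differences of -0.12 (Psmb8), -0.14 (Psmb9) and -0.08 (Psmb10), with adjusted p values of 1.00. Their 95% intervals with the block ran -0.41 to 0.17, -0.62 to 0.33 and -0.90 to 0.73. Over all genes the median change with CA074Me was -0.02, and 37.7% of genes were above 0, so a lower value was common. In both comparisons of an inhibitor with solvent, 0% of genes were called with or without the block. Groups did not overlap for 3 members higher and 2 lower with CLIK148 (6.53% and 9.08% of all genes) and for 4 higher and 1 lower with CA074Me (6.74% and 13.1%).

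CLIK148 and CA074Me, given at the same dose for the same time, were compared directly, as 1 pair with p adjusted over all genes. limma called 0 of 43 with and without the block, beside 0% of all genes. At an unadjusted p under 0.05 was 1 member, Psmd1. At that level were 58 of 12172 genes without the block and 287 with it. Psmd1 differed by -0.22 log2, the lower level being with CLIK148 (95% interval -0.39 to -0.05, adjusted p 1.00), at 11.83 and 12.01 against 12.13 and 12.15. Psmb8, Psmb9 and Psmb10 were higher with CLIK148 by 0.11, 0.11 and 0.07, with block intervals of -0.18 to 0.40, -0.37 to 0.58 and -0.75 to 0.88. Groups did not overlap for 2 members higher with CLIK148 (10.7% of all genes) and 3 lower (8.47%). These intervals do not show that the inhibitors act alike.

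Under a stimulus the inhibitors gave no call among the members either. For CLIK148 with CpG, 0% of all genes were called with or without the block. With CLIK148 and CpG against solvent and CpG, 35 of 43 members were lower on the mean, with a median of -0.05 beside -0.03 for all genes. Above 0 were 8 members as deposited, 15 after cyclic loess and 13 after scaling to reference genes. Of all genes, 34.8%, 47.5% and 51% were above 0 in the same order. Tap2 differed most among the loading genes, at 11.70 and 11.47 against 11.84 and 11.70 (-0.19, 95% interval -0.48 to 0.10). Groups did not overlap for 5 members, Tap2 among them, all lower with CLIK148 (7.77% of all genes lower and 5.14% higher), and 0 members had an unadjusted p under 0.05. With CA074Me and TNF against solvent and TNF, 37 of 43 were higher, beside 52.1% of all genes, with a median of 0.08 beside 0.00. Psmd1 differed most, at 12.39 and 12.35 against 12.13 and 12.14 (0.24, 0.07 to 0.41, adjusted p 1.00). In that comparison limma called 0 of 43, beside 0% of all genes without the block and 0.00822% with it. At an unadjusted p under 0.05 were 1 member without the block and 5 with it, beside 98 and 370 of 12172 genes. Groups did not overlap for 18 members higher and 1 lower, beside 11.3% of all genes higher and 7.71% lower. The interaction tests, which ask whether an inhibitor altered the response to its stimulus, called 0 of 43 and 0% of all genes, with or without the block. The lowest adjusted p values of members were 1.00, with 0 members at an unadjusted p under 0.05, or 1 with the block for CA074Me with TNF. Of 12172 genes, 15 without the block and 61 with it were at that level for CLIK148 with CpG. For CA074Me with TNF they were 80 and 303. Differences of response ran from -0.17 to 0.07 log2 for CLIK148 with CpG and from -0.13 to 0.39 for CA074Me with TNF. For the latter 36 of 43 lay above 0 as deposited but 25 after cyclic loess and 19 after reference-gene scaling. The shares of all genes above 0 were 60.7%, 51.5% and 34.8% in the same order.

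The remaining arrays of the genes described above complete their levels. In the unstimulated inhibitor groups, CLIK148 and then CA074Me, Tap2 read 11.04 and 11.33 and 11.23 and 11.44, and Tapbpl 10.11 and 10.22 and 10.18 and 10.14. H2-M3 read 11.62 and 11.59 and 11.50 and 11.56, with both CA074Me arrays below both solvent arrays. Psme1 read 12.81 and 12.94 and 12.83 and 12.90, and Psme3 9.04 and 9.21 and 9.0 and 9.19. These loading and activator genes overlapped their solvent arrays. Of the alpha subunits, Psma6 read 13.41 and 13.51 and 13.42 and 13.47, and Psma3 12.99 and 13.09 and 13.08 and 13.09. In the 19S regulator, Psmd11 read 12.29 and 12.37 and 12.34 and 12.47, Psmc5 11.44 and 11.44 and 11.49 and 11.51, and Psmc1 11.21 and 11.31 and 11.28 and 11.39. Psmc5 was above its solvent arrays with either inhibitor and Psmc1 with CA074Me, without a call.

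With CpG after CLIK148, Tap2 read 11.70 and 11.47, Tapbpl 10.99 and 10.41, Psme1 13.56 and 13.11, Psme3 9.30 and 9.29 and H2-M3 11.91 and 11.56. Psma6 read 14.02 and 13.80, Psma3 13.46 and 13.26, Psmc5 11.58 and 11.53 and Psmc1 11.34 and 11.42. All of these 9 except H2-M3 were above both CLIK148 arrays. With TNF after solvent, Tap1 read 11.31 and 11.58, Tap2 11.37 and 11.57, Psme1 13.09 and 12.98, Psme3 9.19 and 9.19 and H2-M3 11.70 and 11.67. Psma6 read 13.87 and 13.58, Psma3 13.11 and 13.09, Psmd11 12.44 and 12.45, Psmc5 11.45 and 11.52 and Psmc1 11.18 and 11.35. Tap1, Psme3, H2-M3 and Psmc1 overlapped the solvent arrays there and the other 6 lay above them. With TNF after CA074Me, Psme1 read 13.13 and 13.16, Psme3 9.09 and 9.15 and H2-M3 11.81 and 11.74. Psma6 read 13.81 and 13.75, Psma3 13.18 and 13.19, Psmd11 12.57 and 12.58, Psmc5 11.59 and 11.62 and Psmc1 11.37 and 11.47. Of these 8, Psme3 and Psmc1 overlapped their CA074Me arrays.

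Other genes of the same machinery were read from lists. Of 18 further proteasome genes 16 were tested, and Psmd8, a lid subunit, rose with CpG in limma without the block (0.35 log2, SE 0.06, adjusted p 0.0274) and with TNF after CA074Me (0.49, SE 0.06, adjusted p 0.0074). It was the 1 gene of that list called without the block with CpG, beside 1.92% of all genes. With TNF after CA074Me that fit called 1.31% of all genes. With the block, Psmd10 also rose with CpG (0.39, adjusted p 0.0449), while the assembly chaperones Psmg1 and Psmg2 fell (-0.56 and -0.49, 0.0109 and 0.0162), as did the deubiquitinase Uchl5 (-0.23, 0.0352). Of all genes, 6.19% were called higher and 13.7% lower in that fit. Pomp, the chaperone of core assembly, differed by 0.06.

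Of 23 other class I presentation genes 17 were tested, with 0 called without the block for CpG, beside 1.92% of all genes. With the block 5 were higher and 1 lower, beside 6.19% and 13.7% of all genes. The classical heavy chains H2-K1 and H2-D1 rose by 0.23 and 0.20 (adjusted p 0.0268 and 0.0495 with the block), although probes for class I heavy chains may also bind related family members. Cd1d1, which presents lipids, rose by 1.08 (0.0167 with the block), and the endoplasmic reticulum chaperone Hspa5 by 0.45 (0.0277). Uggt1, a folding sensor of glycoproteins, fell by 0.56 log2 (0.01).

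Of 25 regulators 22 were tested, and 2 rose and 1 fell with CpG without the block, beside 1.92% of all genes called in either direction. Relb, an NF-kB subunit, rose by 0.94 log2 (SE 0.12, adjusted p 0.0106) and Irf8, a transcription factor of dendritic cells, by 1.16 (SE 0.23, adjusted p 0.0459). Ifngr1, the ligand-binding chain of the interferon gamma receptor, fell by 0.81 (SE 0.14, adjusted p 0.029). Relb also rose with TNF (0.86, adjusted p 0.0493) and with TNF after CA074Me (1.24, 0.00352), and in that last comparison Nfe2l1, which induces proteasome genes when proteasome activity is low, rose as well (0.56, 0.0146). With the block, Irf1 (0.80, 0.0408), Irf9 (0.56, 0.0238) and Rfx5 (0.50, 0.0175) were among the 7 regulators that rose with CpG, beside 6.19% of all genes.

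Several genes carry more than 1 single-gene probe set, and 25 of the 43 had from 2 to 8. For Psma6 the 4 probe sets differed by 0.47 to 0.54 log2 with CpG. For Tapbp the brighter and the dimmer probe set gave 0.51 and 0.42, and for Psmb8 0.35 and 0.36. For Tap1, however, the other 3 probe sets had means below the table's median and differed by -0.01 to 0.07, for Tapbpl the dimmer one differed by 0.18, and for Psmd11 the 8 probe sets ranged from -0.06 to 0.37. When the probe sets of a gene were averaged instead of taking the brightest, the peptide loading median with CpG was 0.21.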

How the data were processed

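RNA of cultured mouse dendritic cells was hybridised to Affymetrix mouse arrays, 14 in all, from 100 ng of RNA each. The deposited values are log2 intensities that the authors made by RMA in R 3.0.1, per the submitters' processing notes; the labels do not state RMA's settings. RMA draws all arrays to a common distribution, so a shift shared by most genes would not be seen. The number of arrays limits the precision.

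Of 45101 probe sets, 34945 name 1 gene and 932 several, 9160 name none and 64 are controls. A gene was tested if its probe set exceeded the overall median on at least 2 arrays (12172 of 18193 genes). limma 3.58.1 in R 4.3.3 fitted 7 group means to all 14 arrays (7 residual degrees of freedom), with Benjamini-Hochberg adjustment over the tested genes and a threshold of 0.05; tables were made with pandas 2.3.3 in Python 3.11.15. The same fit with the experiment as a block has 6 residual degrees of freedom. The series' design text names 2 independent experiments, and the replicate differences of all 21 pairs of groups correlated with r of 0.455 to 0.935, so equal numbers pair the arrays. The scripts were tested on simulated data. The test of the stimulus response between experiments (4 residual degrees of freedom) was added after seeing the data.

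Members and lists were chosen with earlier results of these data known. Genes given on every array were the 6 catalytic subunits, each member called in a comparison with or without the block, and the 2 members of each role with the largest difference between CpG and solvent. Alternatives were no filter on low values, averaging the probe sets of a gene, cyclic loess, scaling to reference genes (7 of 8 listed), the block, and leaving out each array.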

Additional observations from a re-analysis of the deposited data

Results flagged for a closer look

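The response to CpG differed between the 2 experiments, by a limma test of that difference, for 17 members, each with a lower response in experiment 2. The difference, experiment 2 minus experiment 1 in log2, was -1.43 for Nlrc5 and -1.32 for Psmb10. Among the other immunoproteasome genes it was -0.64 for Psmb9 and -0.42 for Psmb8. Among the loading genes it was -0.75 for Tapbp, -0.59 for Tapbpl, -0.47 for Tap1 and -0.37 for Tap2. For the activators it was -0.60 for Psme1 and -0.33 for Psme4, and for H2-M3 it was -0.34. Of the core subunits, Psma4 had -0.46, Psma5 and Psma6 had -0.42 each, Psma2 had -0.38, Psma3 had -0.31 and Psmb6 had -0.29. Over all tested genes, 11.5% were called lower and 21.1% higher by the same test. The cause was not tested. With 2 arrays a group, no array could be singled out as far from its group.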

How the results depend on the processing

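With 2 arrays a group, the median 95% interval over the tested genes reached 0.30 log2 to either side without the block and 0.20 with it, so smaller changes were mostly not detectable. The cause of the shifts below was not tested. For CpG after solvent, members called were 0 without the block, 11 with the replicate block, 1 with averaged probe sets, 10 with reference-gene scaling and the block, 11 with cyclic loess and the block, and 0 to 9 when 1 array was left out. For CpG after CLIK148 they were 4 with the block, 1 with cyclic loess, 2 with reference-gene scaling and the block, and 8 with cyclic loess and the block. For TNF after CA074Me they were 2 with the block, 0 with reference-gene scaling and the block, and 3 (2 higher and 1 lower) with cyclic loess and the block. The settings that join a scaling with the block were chosen after seeing the data. The block changed no other count of members called. The median of peptide loading with CpG was 0.212 with averaged probe sets and 0.215 to 0.507 when 1 array was left out. With TNF after solvent, reference-gene scaling, with or without the block, gave medians of 0.121 for the constitutive proteasome, 0.219 for the immunoproteasome and 0.150 for peptide loading; the last was 0.0106 with averaged probe sets. With CpG after CLIK148, leaving out 1 array gave 0.0894 to 0.222 for the constitutive proteasome, 0.283 to 0.591 for the immunoproteasome and 0.131 to 0.548 for peptide loading. With TNF after solvent it gave -0.0045 to 0.0792 for the constitutive proteasome, 0.0275 to 0.250 for the immunoproteasome and -0.0551 to 0.112 for peptide loading. With TNF after CA074Me the immunoproteasome median was 0.275 with averaged probe sets, 0.287 with cyclic loess with or without the block, and 0.157 to 0.502 with 1 array left out. Peptide loading gave 0.101, 0.203 and 0.137 to 0.270 in the same order, and the constitutive proteasome 0.0887 to 0.123 with 1 array left out. Psmb10 with CpG ranged from -0.19 without the CpG array of experiment 1 to 1.39 without that of experiment 2. Of the other values of single genes, 604 kept their direction and side of the threshold, 79 lost a call and 51 gained one.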

Other observations

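Genes outside the set also differed between the experiments in their response to CpG. Of the 22 tested regulators, 9 were called by the same limma test. Stat2, a carrier of the type I interferon signal, differed by -1.27 log2 (experiment 2 minus experiment 1), Irf8 by -0.84, Irf1 by -0.82, Irf2 by -0.49, Irf9 by -0.44 and the kinase Jak1 by -0.32. In the other direction, Creb1 differed by 0.32, Ifngr1 by 0.31 and Nfyc by 0.28. Among 17 other class I presentation genes 5 were called: the nonclassical heavy chain H2-T24 at -1.30, Cd1d1 at -0.73, Hspa5 at -0.38, P4hb at 0.28 and the chaperone calnexin (Canx) at 0.23. Of 16 further proteasome genes, Psmd10 (-0.38), Psmd7 (-0.31) and Psmg1 (0.27) were called. Of all tested genes, 32.6% were called in either direction.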
